A study of Drosophila melanogaster with 10 samples.

Results

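NaPi-III, lilli, mon2, Cda5, CG13053 and Culd are 6 of the 17807 Drosophila gene IDs counted in wing imaginal disks, dissected late in the last larval instar, that overexpressed Naked cuticle (Nkd), a feedback inhibitor of Wingless signaling. They were selected on their fold change, because they stood among the largest rises against GFP disks in at least one of 3 Nkd groups, namely full-length Nkd, Nkd_del_R1S (NkdΔR1S) and Nkd_del_30aa (NkdΔ30aa). Their values in those 3 comparisons chose them and are therefore given as a description, without a test. All 6 were among the 9264 genes that passed the filter on low counts.

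The series holds 10 RNA-seq libraries in 5 groups of 2. In all groups the transgene was driven by MS1096-Gal4, which acts mainly in the wing pouch, while RNA came from about 70 whole disks a sample from larvae raised at 25 °C. The control disks expressed GFP (MS1096 > GFP), and the other disks expressed Nkd_GFPC, Nkd_del_R1S_GFPC, Nkd_del_30aa_GFPC or Nkd_del_D6_GFPC (NkdΔD6), each with GFP at its C terminus. NkdΔR1S lacks the region that binds Dishevelled, and NkdΔ30aa and NkdΔD6 lack potential nuclear localization signals. No disk without a driven transgene was among the groups, and the labels name no deletion of endogenous nkd. The deposited reads were counted per gene, with 18695697 to 20941842 counts a library, and levels are given here as CPM, the counts of a gene scaled by the library total and the TMM factor. The 2 samples of a group are biological duplicates by the study's methods.

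The 6 genes belong to separate processes. NaPi-III encodes a sodium-dependent phosphate transporter, which takes up inorganic phosphate together with sodium ions. lilli (lilliputian) is the fly member of the AF4/FMR2 family and a scaffold of the super elongation complex, which brings the kinase P-TEFb to paused RNA polymerase II. mon2 encodes a large protein of the trans-Golgi network and endosomes that acts in membrane traffic, and Cda5 encodes a chitin deacetylase-like protein, a family that modifies the chitin of the cuticle and tracheal lining. Culd encodes a transmembrane protein with CUB and LDLa domains, known in fly photoreceptors for the endocytic traffic of rhodopsin. No role is given here for CG13053.

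The driven gene, nkd, was higher in every Nkd group than in GFP disks. nkd was at 53.7 ± 23.2 CPM (SD, n = 2) in GFP disks, 1165 ± 34.3 in Nkd, 429 ± 118 in NkdΔR1S, 1337 ± 228 in NkdΔ30aa and 1171 ± 252 in NkdΔD6. The log2 fold changes of nkd were 4.44, 3.00, 4.64 and 4.45, with edgeR adjusted p of 0.00696, 0.0292, 9.83e-04 and 0.00654. The nkd level was lowest among the Nkd groups in NkdΔR1S, and NkdΔD6 overlapped both Nkd and NkdΔ30aa. Counts per gene do not tell which form of Nkd a library expressed. Wing disk markers were present, with all 17 of 17 listed genes counted and a summed level of 1334 to 2637 CPM. Nearly all listed markers of other tissues were counted too, so a count alone does not identify the tissue. Salivary gland markers summed to 4946 CPM in GFP replicate 1 and 16774 in Nkd replicate 1, above the wing disk sums of 1334 and 1942. The libraries also differed in how level followed gene length, with rank correlations of exon length with level relative to the mean of all libraries from -0.616 in GFP replicate 1 to 0.620 in NkdΔ30aa replicate 1. The members' exon length is therefore taken up beside their values below.

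NaPi-III, the phosphate transporter gene (FBgn0260795, BDGP6 3L:11123348-11134663, plus strand, 2 annotated transcripts), had its highest level in Nkd disks. The GFP libraries were at 31.3 and 28.0 CPM, and the levels were 110.2 and 135 in Nkd, 66.3 and 64.1 in NkdΔR1S, 83.2 and 78.4 in NkdΔ30aa, and 58.5 and 44.7 in NkdΔD6. The groups did not overlap, and the order from low to high was GFP, NkdΔD6, NkdΔR1S, NkdΔ30aa, Nkd. Relative to GFP, NaPi-III had a log2 fold change of 2.05 (SE 0.15) in Nkd, 1.14 (SE 0.15) in NkdΔR1S and 1.45 (SE 0.15) in NkdΔ30aa. By log2 fold change among the 9264 tested genes, NaPi-III ranked 149 from the highest in Nkd, 356 in NkdΔR1S and 521 in NkdΔ30aa.

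lilli, the elongation scaffold gene (FBgn0041111, 2L:2885929-2954406, plus strand, 9 transcripts), was highest in NkdΔ30aa. The libraries held 14.3 and 18.9 CPM in GFP, 24.6 and 31.4 in Nkd, 42.2 and 47.3 in NkdΔR1S, 57.8 and 53.3 in NkdΔ30aa, and 33.9 and 35.3 in NkdΔD6. Again no groups overlapped, and full-length Nkd, the highest group for NaPi-III, was the lowest of the Nkd groups for lilli. Against GFP, the log2 fold change was 0.75 (SE 0.17) in Nkd, 1.43 (SE 0.17) in NkdΔR1S and 1.74 (SE 0.17) in NkdΔ30aa. With each library left out in turn, the Nkd value ran from 0.56 without GFP replicate 1 to 1.10 without GFP replicate 2.

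mon2, which encodes the Golgi and endosome protein (FBgn0031985, 2L:8116965-8124010, minus strand, 2 transcripts), was high in Nkd and NkdΔ30aa alike and nearest to GFP in NkdΔR1S. Its level was 24.0 and 26.6 CPM in GFP, 61.2 and 74.9 in Nkd, 31.7 and 40.3 in NkdΔR1S, 66.7 and 62.2 in NkdΔ30aa, and 57.1 and 50.6 in NkdΔD6. Nkd and NkdΔ30aa overlapped, and the other groups were separate, in the order GFP, NkdΔR1S, NkdΔD6. Its log2 fold change was 1.42 (SE 0.15) in Nkd, 0.51 (SE 0.15) in NkdΔR1S and 1.35 (SE 0.15) in NkdΔ30aa. The NkdΔR1S value was 0.35 without NkdΔR1S replicate 2 and 0.76 without NkdΔR1S replicate 1.

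Cda5, the chitin deacetylase-like gene (FBgn0051973, 2L:25402-65404, minus strand, 8 transcripts), was a low-level gene in every group. Its GFP libraries held 30 and 33 reads, or 1.66 and 1.70 CPM. The Nkd libraries were at 4.61 and 6.29 CPM, NkdΔR1S at 3.61 and 3.37, NkdΔ30aa at 8.16 and 7.25, and NkdΔD6 at 11.7 and 6.67. All Nkd groups lay above GFP, NkdΔR1S lay nearest to it, and NkdΔ30aa and NkdΔD6 overlapped. Its log2 fold change was 1.69 (SE 0.33) in Nkd, 1.05 (SE 0.33) in NkdΔR1S and 2.19 (SE 0.33) in NkdΔ30aa.

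Culd, the CUB and LDLa domain gene (FBgn0035880, 3L:8352355-8356296, minus strand, 4 transcripts), stood apart in NkdΔ30aa alone. It was at 3.55 and 3.40 CPM in GFP and at 97.6 and 78.5 CPM in NkdΔ30aa, from 64 and 66 reads against 2034 and 1688. Its other libraries were at 10.3 and 4.09 CPM in Nkd, 3.39 and 5.11 in NkdΔR1S, and 5.30 and 4.43 in NkdΔD6. These 3 groups overlapped one another, NkdΔR1S also overlapped GFP, and every one of their libraries lay far under both NkdΔ30aa libraries. The NkdΔ30aa mean of 88.1 ± 13.5 CPM was 25.3 times the GFP mean of 3.48 ± 0.107, with a log2 fold change of 4.66 (SE 0.44).

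The Nkd value of Culd rested on 1 library. Its log2 fold change in Nkd was 1.05 (SE 0.40), and it was 0.34 without Nkd replicate 1 and 1.65 without Nkd replicate 2. Nkd replicate 1 was also the library with the highest summed level of salivary gland, fat body and larval muscle markers. The 11 of 11 listed salivary gland markers, all detected, summed to 16774 and 215 CPM in Nkd, 649 to 4946 in GFP, 57.9 to 220.0 in NkdΔR1S, 205 to 1515 in NkdΔ30aa, and 351 to 1096 in NkdΔD6. The 8 of 8 fat body markers summed to 3480 and 818 CPM in Nkd and to 506 to 3016 in the other groups, and the 11 of 11 larval muscle markers to 404 and 135 CPM in Nkd and to 117 to 383 in the other groups. The part of these markers in the Nkd value of Culd was not tested. Photoreceptor and eye disk markers, the tissue in which Culd is best known, summed to 52.2 to 76.0 CPM over all libraries. Most of that sum was eya, at 26.3 to 42.9 CPM, and so, at 15.3 to 21.1. Among the photoreceptor genes, chp was at 2.99 to 7.84 CPM and ninaE at or under 0.0523, and the channel gene trp had no count in any library. In bulk disks, fewer cells of a type and less RNA per cell cannot be told apart.

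CG13053 (FBgn0040801, 3L:16259037-16259722, minus strand, 2 transcripts) was the one gene of the 6 that lay below GFP in any group. CG13053 was measured at 10.4 and 17.0 CPM in the control libraries, 27.7 and 51.6 in Nkd, 52.4 and 48.2 in NkdΔR1S, 7.82 and 8.09 in NkdΔ30aa, and 15.0 and 17.8 in NkdΔD6. Nkd and NkdΔR1S overlapped at the top, GFP and NkdΔD6 overlapped in the middle, and NkdΔ30aa lay below all other libraries. The log2 fold change was 1.53 (SE 0.31) in Nkd, 1.87 (SE 0.32) in NkdΔR1S and -0.79 (SE 0.31) in NkdΔ30aa. The sizes varied with single libraries. The Nkd value ran from 1.09 without Nkd replicate 2 to 2.05 without GFP replicate 2, and the NkdΔ30aa value from -1.10 without GFP replicate 1 to -0.35 without GFP replicate 2.

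**Figure D1:**
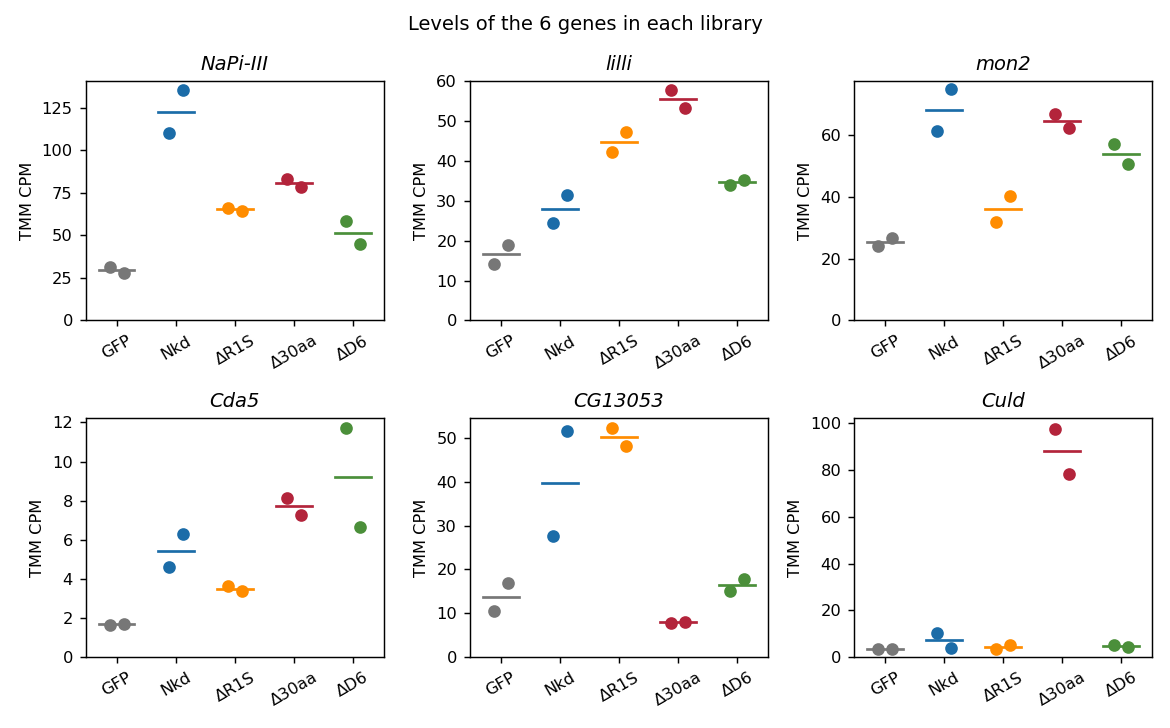
TMM-scaled level in CPM (linear scale) of NaPi-III, lilli, mon2, Cda5, CG13053 and Culd in each of the 10 libraries, by group, with a bar at the group mean. Culd stands at 78.5 and 97.6 CPM in NkdΔ30aa and at or under 10.3 CPM elsewhere, and CG13053 is the gene with its lowest level in NkdΔ30aa.

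The plot of levels by library shows that the 6 genes did not share one pattern. NaPi-III was highest in Nkd, lilli and Culd in NkdΔ30aa, CG13053 in Nkd and NkdΔR1S, and mon2 and Cda5 shared their top level between groups that overlapped. Over the 10 libraries, the Pearson correlation of log2 CPM was highest for mon2 with Cda5 (0.87) and for NaPi-III with mon2 (0.83), and lowest for CG13053 with Culd (-0.62). These libraries share the same groups and the same length differences, so the values are descriptive.

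Levels can be compared between genes per kilobase of exon. In GFP disks CG13053 was the highest of the 6, at 22.1 ± 7.49 CPM per kilobase (SD, n = 2). It was followed by NaPi-III at 7.98 ± 0.64, mon2 at 4.36 ± 0.32, lilli at 1.56 ± 0.31, Culd at 1.06 ± 0.03 and Cda5 at 0.156 ± 0.0023, and no neighbours in that order overlapped. In NkdΔ30aa Culd was the highest instead, at 26.8 ± 4.12 CPM per kilobase against 21.8 ± 0.91 for NaPi-III and 12.8 ± 0.30 for CG13053.

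NkdΔD6 against GFP was the one comparison whose Nkd libraries had no part in the choice of the genes, although its GFP libraries did. A gene was called where its fold change passed 1.5 and its edgeR adjusted p fell under 0.05. In this comparison 4 of the 6 genes rose, namely NaPi-III, lilli, mon2 and Cda5, while CG13053 and Culd did not pass the test. Of all genes tested, 10.4% were called higher. Because the choice favored genes that were low in these same GFP libraries, that share is no null value for the 6 genes, and the p-values are not free of the choice.

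Cda5 had the largest change in NkdΔD6, with a log2 fold change of 2.45 (SE 0.33, edgeR adjusted p = 0.00868) and a mean of 9.20 ± 3.59 CPM against 1.68 ± 0.0252 in GFP. mon2 rose by 1.09 (SE 0.15, edgeR adjusted p = 0.00868) and lilli by 1.06 (SE 0.17, edgeR adjusted p = 0.00950) on the log2 scale. NaPi-III rose the least, by 0.80 (SE 0.15, edgeR adjusted p = 0.0115), to 51.6 ± 9.73 CPM against 29.7 ± 2.39. The changes of Culd, 0.48 (SE 0.41, edgeR adjusted p = 0.408), and CG13053, 0.26 (SE 0.31, edgeR adjusted p = 0.565), did not pass the test. The sign for CG13053 turned to -0.05 without GFP replicate 1.

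These 4 calls depended on single libraries. All 4 were lost without GFP replicate 1, where edgeR adjusted p was 0.0742 to 0.0746, and without NkdΔD6 replicate 1, where it was 0.0968 to 0.0974. Their fold changes stayed between 0.67 and 2.86 on the log2 scale when any library of the comparison was left out. Across all genes, leaving out those libraries took the calls from 959 higher and 538 lower to 3 and 5 without GFP replicate 1, and to 0 without NkdΔD6 replicate 1, where 2348 genes still had an unadjusted edgeR p under 0.05. With all libraries, DESeq2 called 1200 genes higher and 385 lower in this comparison, the same 4 among them.

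Most of the 6 genes have long exons. The summed exon length was 10793 bases for Cda5, 10614 for lilli, 5806 for mon2, 3715 for NaPi-III, 3289 for Culd and 620 for CG13053, against a median of 2020 over the genes tested. Cda5 and lilli thus stood at the 98.0 and 97.9 percentile of length, mon2 at 90.7, NaPi-III at 78.3 and Culd at 73.7, while CG13053 stood at 5.78. To give values beside this, the fit was repeated with an offset for each gene in each library taken from a smooth curve of level against exon length in that library. Such offsets also remove any true change that goes with length.

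With the length offsets the long genes moved most. The log2 fold change of lilli in NkdΔ30aa went from 1.74 to 0.39 and that of mon2 from 1.35 to 0.41, and Cda5 went from 2.19 to 0.81. In Nkd, lilli went from 0.75 to 0.18, and in NkdΔR1S from 1.43 to 0.94. NaPi-III kept 1.81 of 2.05 in Nkd and 1.01 of 1.14 in NkdΔR1S but went from 1.45 to 0.94 in NkdΔ30aa, and Culd kept 4.30 of 4.66 in NkdΔ30aa. CG13053, the short gene, moved the other way, to 2.02 in Nkd, 1.97 in NkdΔR1S and -0.06 in NkdΔ30aa.

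In NkdΔD6 the offsets left 1 of the 4 calls, with 3.03% of all genes called higher. Cda5 stayed called at 1.53 (SE 0.30, edgeR adjusted p = 0.0196). mon2 at 0.52 (edgeR adjusted p = 0.0141) and NaPi-III at 0.53 (edgeR adjusted p = 0.0450) passed the p threshold but not the fold minimum, and lilli at 0.20 (edgeR adjusted p = 0.287) passed neither. A change that goes with length and one that goes with the expressed Nkd form cannot be told apart here, because the GFP and NkdΔ30aa libraries lay at opposite ends of the length trend.

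**Figure D2:**
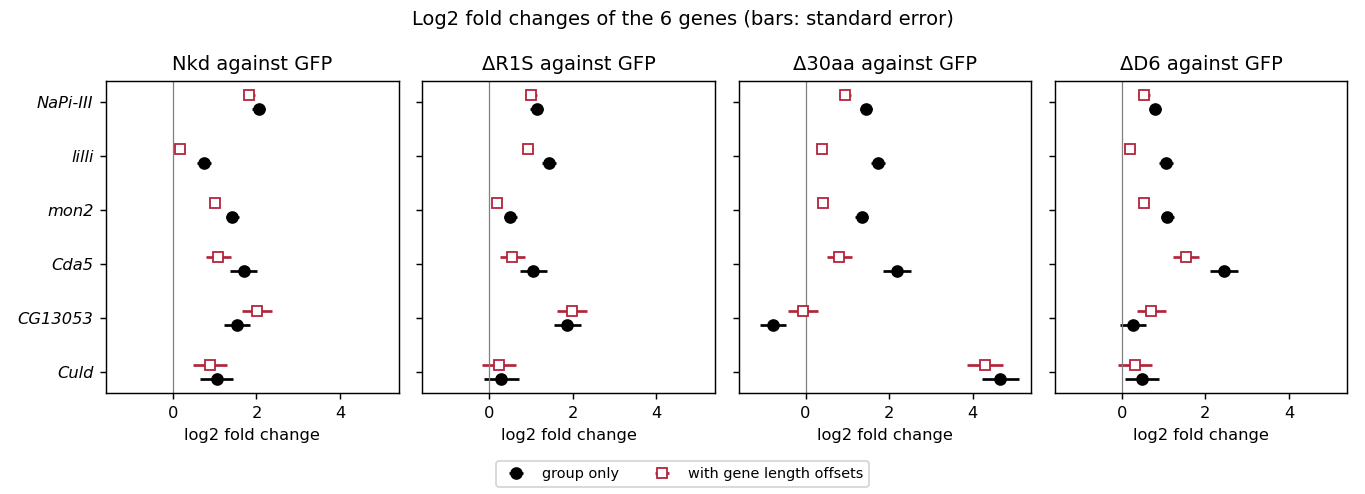
Log2 fold change against GFP of each of the 6 genes in the 4 Nkd groups, with standard error bars, from the fit on group only (black) and from the fit with gene length offsets (red). The values of lilli in NkdΔ30aa fall from 1.74 to 0.39 while those of Culd stay at 4.66 and 4.30.

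**Figure D3:**
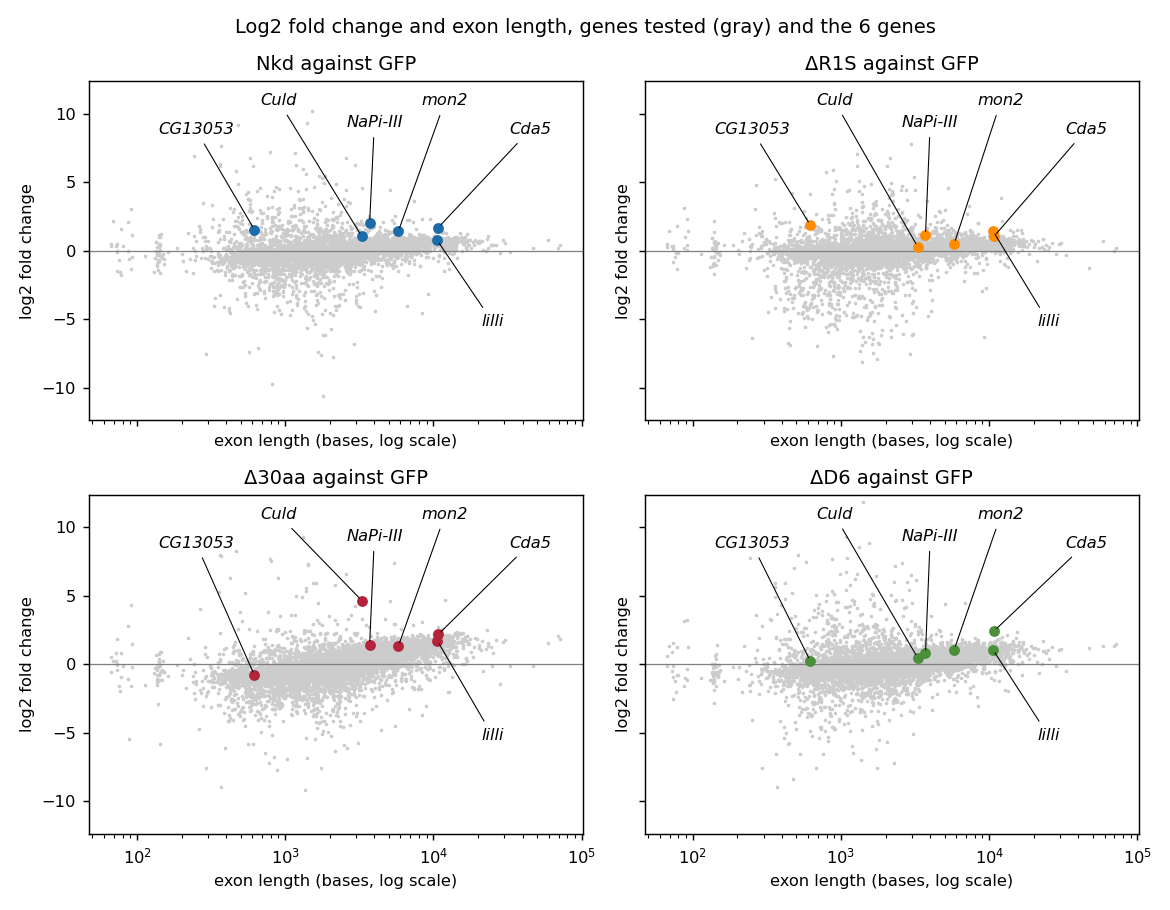
Log2 fold change against exon length (bases, log scale) for all 9264 tested genes (gray) in the 4 comparisons, with the 6 genes in color. Cda5 and lilli lie at 10793 and 10614 bases at the right of each panel, and CG13053 at 620 bases at the left.

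The plots of fold change by gene and against exon length place the 6 genes on these trends. By log2 fold change, Culd ranked 23 from the highest in NkdΔ30aa, followed by Cda5 at 99, lilli at 235, NaPi-III at 521 and mon2 at 641.

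The surroundings of the genes were examined because a change spread over a chromosome region would move neighbours too. The nearest tested genes, 3 on each side, gave 34 neighbours, since Cda5 lies close to the end of 2L and had only 1 on that side. No exon base of the 6 genes is shared with another annotated gene, so shared reads between overlapping exons do not enter their counts. Within their spans, however, lie nol and CG32074 (NaPi-III), lncRNA:CR46254 (Cda5) and mir-4913 (Culd).

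The neighbours moved in both directions. In Nkd 1 of the 34 rose (Mcr, log2 fold change 0.66) and 1 fell (Trf, fell by 0.63), against 3.05% of all genes called higher and 4.51% lower. Both are neighbours of mon2, 33983 and 43017 bases from it. Bsg, which lies between them and mon2 at 434 bases, was not called (0.12). In NkdΔ30aa 6 rose and 5 fell, against 18.2% and 12.8%, and in NkdΔD6 5 rose and 3 fell, against 10.4% and 5.81%. In NkdΔR1S edgeR called 0 of the 34, against 0.173% of all genes, with 9 at an unadjusted p under 0.05 and 3 called by DESeq2. Over all genes tested, 19.9% were at that unadjusted p and 4.15% were called by DESeq2. The median log2 fold changes of the neighbours were -0.08, -0.20, -0.24 and -0.08, and those of all genes -0.05, -0.13, -0.10 and -0.03, in the order Nkd, NkdΔ30aa, NkdΔD6 and NkdΔR1S. The 2 calls in Nkd fell to 0 without GFP replicate 1, Nkd replicate 1 or Nkd replicate 2, and to 1 without GFP replicate 2. The 8 calls in NkdΔD6 fell to 0 without GFP replicate 1 or NkdΔD6 replicate 1.

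With the fit on group only, none of the 6 neighbours of lilli was called in any of the 4 comparisons. With length offsets, 2 neighbours rose and 4 fell in NkdΔ30aa, and 2 rose and 2 fell in NkdΔD6. Over all genes, 4.93% rose and 4.72% fell in NkdΔ30aa, and 3.03% and 2.84% in NkdΔD6. The rises were PAPLA1 and dbr in both, with dbr, 1078 bases from Cda5, at 0.60 and 0.62. Idh in NkdΔ30aa and CG7083 in NkdΔD6 stayed called lower. Newly called lower were Bsg in both and, in NkdΔ30aa, Rbp9 (a neighbour of lilli) and l(2)gl. Culd lies between GAPcenA, 76 bases away on the other strand, and Idh, 108 bases away on the same strand. GAPcenA rose by 1.02 in NkdΔ30aa (edgeR adjusted p = 0.00132) and by 0.19 with length offsets, where it was not called. Idh, which encodes an isocitrate dehydrogenase, fell by 0.80 in NkdΔ30aa (edgeR adjusted p = 0.00111). With length offsets Idh stayed called, at -0.86 (edgeR adjusted p = 0.00317). The change of Culd, at 4.66, was larger than that of either gene beside it, but that value was among those that chose Culd. ImpE1, 16109 bases from Culd on the other strand, was at 1.97 (SE 0.74) in NkdΔ30aa, which did not pass the test (edgeR adjusted p = 0.0749).

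CG34247, 1463 bases from CG13053 on the same strand and 353 bases in exon length, had a profile close to that of CG13053. Its level was 0.888 and 2.11 CPM in GFP, 2.78 and 5.12 in Nkd, 8.64 and 11.6 in NkdΔR1S, 2.06 and 1.26 in NkdΔ30aa, and 1.44 and 1.83 in NkdΔD6. It was highest in NkdΔR1S, as CG13053 was by its mean, but it did not go below GFP in NkdΔ30aa. Its log2 fold change in NkdΔR1S was 2.74 (SE 0.53), which did not pass the test (edgeR adjusted p = 0.133).

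**Figure D4:**
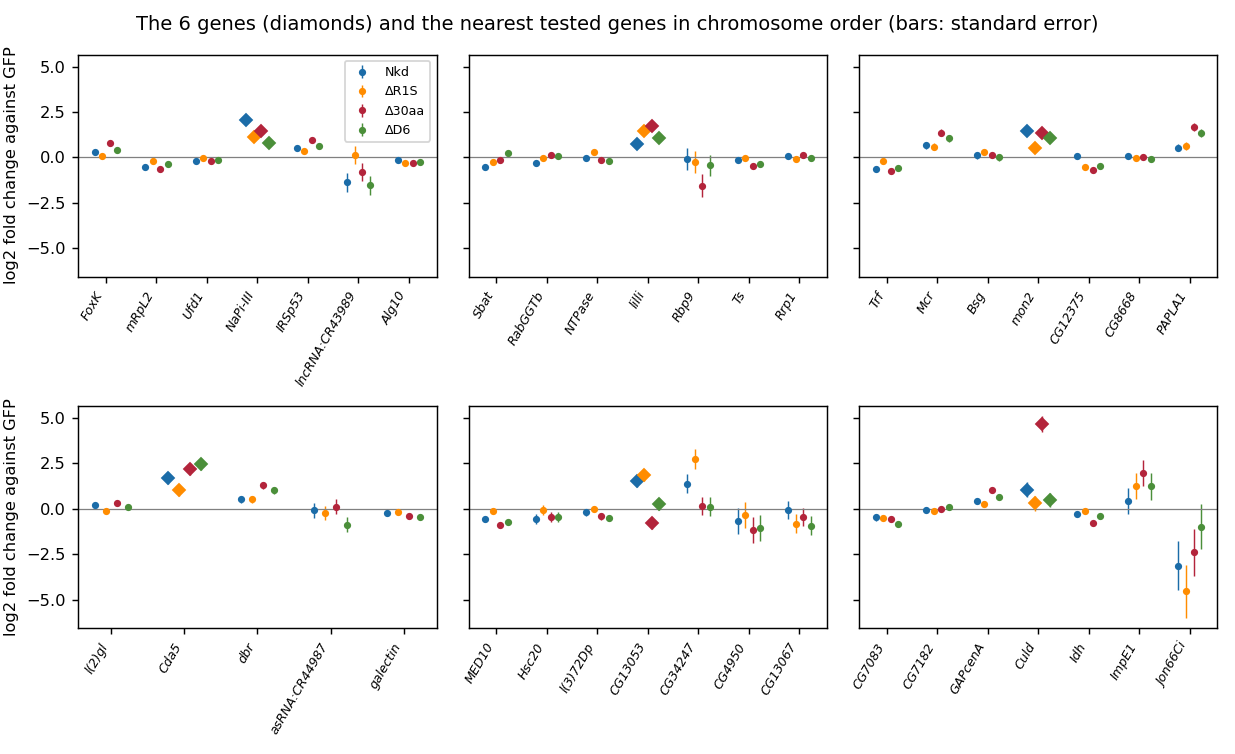
Log2 fold change against GFP, with standard error bars, of the 6 genes (diamonds) and the nearest tested genes on each side in chromosome order, in the 4 Nkd groups by color. Culd at 4.66 in NkdΔ30aa stands above GAPcenA at 1.02 and Idh at -0.80.

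The plot of neighbours shows the 6 genes apart from most of their neighbours, which is in part how they were chosen. Some neighbours lay level with or above their member. PAPLA1, 10237 bases from mon2, was at 1.66 in NkdΔ30aa and 1.33 in NkdΔD6, against 1.35 and 1.09 for mon2. With length offsets PAPLA1 was at 0.59 and 0.67, and mon2 at 0.41 and 0.52. Mcr was at 1.36 in NkdΔ30aa. In NkdΔD6 ImpE1 lay above Culd, at 1.23 against 0.48, and neither was called. In NkdΔR1S, CG34247 lay above CG13053 itself, at a log2 fold change of 2.74 against 1.87.

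Genes of the same processes were then counted, from 5 lists with 108 tested genes and the 6 genes themselves left out. In Nkd 5 rose and 1 fell, in NkdΔ30aa 36 rose and 6 fell, and in NkdΔD6 20 rose and 4 fell. Over all genes, 3.05%, 18.2% and 10.4% were called higher and 4.51%, 12.8% and 5.81% lower in these comparisons. In NkdΔR1S edgeR called 0 of the 108, with 25 at an unadjusted p under 0.05 and 8 called higher by DESeq2, against 19.9% and 3.25% of all genes. Their median log2 fold changes were 0.06, 0.26, 0.12 and 0.03 in Nkd, NkdΔ30aa, NkdΔD6 and NkdΔR1S, beside -0.05, -0.13, -0.10 and -0.03 over all genes. With length offsets the calls in NkdΔ30aa were 9 higher, 8 of them shared with the fit on group only, and 3 lower, none of them shared, against 4.93% and 4.72% of all genes. In NkdΔD6 they were 6 higher, 5 of them shared, and 1 lower, which was shared, against 3.03% and 2.84%, and in Nkd there were none, against 0.604% of all genes called in either direction. The 6 calls in Nkd fell to 0 without GFP replicate 1, Nkd replicate 1 or Nkd replicate 2, and to 3 without GFP replicate 2. The 24 in NkdΔD6 fell to 0 without GFP replicate 1 or NkdΔD6 replicate 1.

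Phosphate handling, the list of NaPi-III, held 9 tested genes. No gene of the list was called in Nkd, where NaPi-III was highest, nor in NkdΔR1S or NkdΔ30aa. At an unadjusted edgeR p under 0.05 there were none in Nkd or NkdΔR1S, and 1 higher and 1 lower in NkdΔ30aa. Of all genes, 36.4% in Nkd, 19.9% in NkdΔR1S and 53.1% in NkdΔ30aa reached that unadjusted p. DESeq2 called none of the list in these comparisons, against 11.8%, 4.15% and 31.0% of all genes. MFS14, a member of the major facilitator transporter family, fell by 0.74 in NkdΔD6 (SE 0.10, edgeR adjusted p = 0.00868). With length offsets it was called lower in NkdΔD6 (-0.89) and also in NkdΔ30aa (-0.84, edgeR adjusted p = 0.00368), and Mpcp2, a mitochondrial phosphate carrier gene, was called higher in both.

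The super elongation complex and elongation control, the list of lilli, held 23 tested genes. In NkdΔ30aa, where lilli was highest, 11 rose and 1 fell, and in NkdΔD6 7 rose and 1 fell. Over all genes, 18.2% were called higher and 12.8% lower in NkdΔ30aa, and 10.4% and 5.81% in NkdΔD6. CycT, the cyclin subunit of P-TEFb, went from 25.9 ± 4.42 CPM in GFP to 85.4 ± 6.90 in NkdΔ30aa, a log2 fold change of 1.72 (SE 0.25, edgeR adjusted p = 0.00152), and it rose by 1.26 in NkdΔD6 (edgeR adjusted p = 0.0133). fs(1)h, the BET-family bromodomain gene, rose by 1.57 in NkdΔ30aa (SE 0.26, edgeR adjusted p = 0.00218) and by 1.08 in NkdΔD6 (edgeR adjusted p = 0.0205). spt4, which encodes a subunit of the elongation factor DSIF, was the gene that fell in both, by 1.01 and 0.59 on the log2 scale. In Nkd the calls were Nelf-A (0.66), of the pausing factor NELF, and the elongation factor gene Spt6 (0.62). With length offsets CycT, Nelf-A and Rtf1 stayed called higher in NkdΔ30aa and NkdΔD6, and Larp7 and ear in NkdΔ30aa. fs(1)h, with 15685 exon bases, was then at -0.03 in NkdΔ30aa and 0.03 in NkdΔD6, spt4, with 457, was at -0.17 and -0.05, and neither Nelf-A nor Spt6 was called in Nkd.

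Golgi and endosome trafficking, the list of mon2, held 29 tested genes. No gene of it was called in Nkd, where 7 higher and 7 lower had an unadjusted edgeR p under 0.05 and DESeq2 called 1 higher. The same unadjusted p was reached by 16.3% of all genes higher and 20.1% lower, and DESeq2 called 8.58% of all genes higher. In NkdΔ30aa 8 rose and 1 fell, against 18.2% and 12.8% of all genes. The rises were led by garz (1.41, SE 0.18) and Sec71 (1.37, SE 0.21), both of which encode large Arf exchange factors. Arl1, a small GTPase gene of the Golgi, fell by 0.61. In NkdΔD6 Sec71 (0.95) and garz (0.94) were the only calls, against 10.4% of all genes called higher and 5.81% lower. None of these calls was kept with length offsets.

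Chitin and chitin matrix, the list of Cda5, held 26 tested genes, with calls in both directions. In NkdΔ30aa 5 rose and 3 fell, or 19.2% and 11.5%, against 18.2% and 12.8% of all genes. In NkdΔD6 2 rose and 1 fell, or 7.69% and 3.85%, against 10.4% and 5.81%. The list thus lay near or under the shares of all genes. The chitinase gene Cht6 rose by 1.70 in NkdΔ30aa (SE 0.37, edgeR adjusted p = 0.00738) and by 1.28 in NkdΔD6 (edgeR adjusted p = 0.0388). Idgf1, which encodes a chitinase-like growth factor, fell by 2.21 in NkdΔ30aa (SE 0.76, edgeR adjusted p = 0.0414) from a GFP level of only 1.77 ± 1.11 CPM. With length offsets neither was called, with Cht6 at 0.09 in NkdΔ30aa and 0.22 in NkdΔD6 and Idgf1 at -1.84 in NkdΔ30aa (edgeR adjusted p = 0.118). No chitin gene was then called higher in these 2 comparisons, and exp was newly called lower in NkdΔ30aa. At 2.45, the log2 fold change of Cda5 in NkdΔD6 was larger than that of any called gene of its list.

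Endocytosis with the LDLa and CUB receptors, the list of Culd, held 21 tested genes with a median exon length of 5411 bases. In NkdΔ30aa 12 rose and 1 fell, in NkdΔD6 9 rose and 1 fell, and in Nkd 3 rose and 1 fell. Over all genes, 18.2%, 10.4% and 3.05% were called higher and 12.8%, 5.81% and 4.51% lower in these comparisons. LRP1, an LDL-receptor family gene, rose by 1.85 (SE 0.26, edgeR adjusted p = 0.00134) and mgl, the fly megalin gene, by 1.83 (SE 0.23, edgeR adjusted p = 0.00112) in NkdΔ30aa. arr, the Wingless co-receptor gene, rose by 0.98 in Nkd (SE 0.14, edgeR adjusted p = 0.0218). It also rose by 1.40 in NkdΔ30aa (edgeR adjusted p = 9.83e-04) and by 0.95 in NkdΔD6 (edgeR adjusted p = 0.00896). AP-2sigma, a subunit gene of the clathrin adaptor AP-2, fell in all 3 comparisons, by 0.84, 0.67 and 0.64 in NkdΔ30aa, NkdΔD6 and Nkd. None of these 4 genes kept its call with length offsets. LRP1 was then at 0.26 and mgl at 0.12 in NkdΔ30aa, and AP-2sigma, with 751 exon bases, at -0.15, -0.22 and -0.15. arr was at 0.55 in Nkd, 0.43 in NkdΔ30aa and 0.37 in NkdΔD6. It passed the p threshold there (edgeR adjusted p = 0.0266, 0.0100 and 0.0269) but not the fold minimum. The genes of the list that stayed called higher were Stam, cue and tok in NkdΔ30aa and cue and tld in NkdΔD6, and Cubn was newly called lower in NkdΔ30aa.

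The genes most like each member were taken as the 3 with the highest Pearson correlation of log2 CPM over the 10 libraries. For NaPi-III these were Pdp1 (0.94), SCAP (0.92) and Nadsyn (0.92), and for lilli CG13784 (0.95), CG32809 (0.94) and tapas (0.94). For mon2 they were Gart, CG2691 and CG2519 (each 0.97), and for Cda5 CG9674, Nup188 and CG3702 (each 0.97). All 12 were longer in exon than the median gene. CG13053 was matched by betaTub97EF (0.96), CG32640 (0.92) and CG44006 (0.91), of which betaTub97EF, a beta-tubulin gene, was at 9.90 ± 4.66 CPM in GFP, 25.0 ± 2.59 in NkdΔR1S and 4.99 ± 0.747 in NkdΔ30aa.

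Culd was matched by CG17364 (0.97), lncRNA:CR46094 (0.96) and CG1233 (0.96). CG17364, which lies elsewhere on 3L, had 1 read in each GFP library and 134 and 307 in the NkdΔ30aa libraries, or 6.43 and 14.3 CPM. lncRNA:CR46094 was at 0.0535 ± 0.0028 CPM in GFP and 2.27 ± 0.216 in NkdΔ30aa, and CG1233 went from 12.1 ± 1.12 to 25.5 ± 1.48. These 3 genes, like Culd, had their highest level in both NkdΔ30aa libraries, and the matches were picked for that likeness. CG17364 and lncRNA:CR46094, with no more than 4 reads in any other library, passed the filter on low counts only through NkdΔ30aa.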

How the data were processed

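Per the labels, the authors used HISAT2 2.2.1 as aligner, BDGP6 as genome and featureCounts as counter, and they deposited raw read counts of each gene in 10 libraries. Whether counting used strand was not stated. From the counts, edgeR 4.0.16 (R 4.3.3) was run with TMM scaling, filterByExpr by group and the quasi-likelihood F test on group over all 10 libraries, which left 5 residual degrees of freedom. This stands in for DESeq2, the tool the authors used, which was run as an alternative (version 1.42.0). Of 14420 genes with a count, 9264 were tested. A gene was called at a fold change over 1.5 and a Benjamini-Hochberg adjusted p under 0.05 over all genes tested. Standard errors were derived from the F statistic. The length offsets used lowess (span 0.3, prior count 2). The fit was also run on simulated counts with the same spread for all genes and no length differences between libraries. That run therefore does not bear on the length trend.

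The members and lists were chosen with earlier results of these data known. Named are the 6 members, nkd, the 3 nearest tested genes on each side, the 3 most correlated genes and, per related list, the 2 highest and 2 lowest called genes in a comparison. Other genes named as keeping or gaining a call with length offsets were chosen after their values were seen. The related lists were phosphate handling, super elongation complex and elongation control, Golgi and endosome trafficking, chitin and chitin matrix, and endocytosis with LDLa and CUB receptors. Marker lists covered wing disk epithelium, salivary gland, muscle, adult muscle precursors, hemocytes, fat body, gut, trachea, eye disk, and neurons and glia, and had a count for every listed gene but trp. Summed levels ranged over the libraries from 117 to 404 CPM for larval muscle, 116 to 277 for adult muscle precursors, 62.4 to 163 for hemocytes, 506 to 3480 for fat body, 16.2 to 265 for gut, 1045 to 1300.3 for trachea, and 18.7 to 29.3 for neurons and glia. At 18695697 to 20941842 counts a library, counting error is largest for Cda5 and Culd among the 6 genes, and 2 libraries a group limit the precision.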

Additional observations from a re-analysis of the deposited data

Results flagged for a closer look

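The change of CG13053 against GFP differed in direction between groups. Both Nkd libraries (27.7 and 51.6 CPM) and both NkdΔR1S libraries (52.4 and 48.2 CPM) lay above both GFP libraries (10.4 and 17.0 CPM), and both NkdΔ30aa libraries (7.82 and 8.09 CPM) lay below them. The log2 fold change was 2.32 higher in Nkd than in NkdΔ30aa and 2.66 higher in NkdΔR1S than in NkdΔ30aa. These differences were not tested, since Nkd, NkdΔR1S and NkdΔ30aa were the groups in which the gene was picked. With length offsets the NkdΔ30aa value was -0.06.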

How the results depend on the processing

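Results were recomputed with RLE scaling, no filter, DESeq2, edgeR on the 4 libraries of a comparison, the replicate block, gene length offsets without and with that block, an adjusted p under 0.1, no fold minimum, and each library left out. The calls of the 4 members in NkdΔD6 were 1 with length offsets and 1 with offsets and block. Related genes called in Nkd, 6 in the main test, were 10 with RLE scaling, 16 with DESeq2, 0 on the 4 libraries, 0 with offsets and 0 with offsets and block, 10 at adjusted p under 0.1 and 22 with no fold minimum. Those in NkdΔ30aa, 42 in the main test, were 12 with offsets, 14 with offsets and block, and 65 with no fold minimum. Those in NkdΔD6, 24 in the main test, were 7 with offsets, 7 with offsets and block, and 43 with no fold minimum. Neighbours called in Nkd, 2 in the main test, were 6 with DESeq2, 0 on the 4 libraries, 0 with offsets and 0 with offsets and block, 4 at adjusted p under 0.1 and 5 with no fold minimum. Those in NkdΔ30aa, 11, and NkdΔD6, 8, were 6 and 4 with offsets and the same with offsets and block. In NkdΔR1S DESeq2 called 8 related genes and 3 neighbours, against 0.

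With each library left out in turn, the calls ran from 0 to 4 for the members in NkdΔD6, 0 to 3 for related genes in Nkd, 0 to 1 in NkdΔR1S, 35 to 46 in NkdΔ30aa and 0 to 31 in NkdΔD6, and 0 to 1 for neighbours in Nkd, 9 to 13 in NkdΔ30aa and 0 to 8 in NkdΔD6. The cause of these differences was not tested, beyond fewer samples in the runs with a library left out. Over all genes, 283 higher and 418 lower calls in Nkd became 497 and 238 with RLE scaling and 795 and 297 with DESeq2. In NkdΔR1S 5 and 11 became 301 and 83 with DESeq2, and in NkdΔD6 959 and 538 became 1090 and 320 with RLE scaling, 1200 and 385 with DESeq2, and 281 and 263 with offsets.

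Same-numbered libraries of 2 groups deviated together with correlations of -0.22 to 0.37, so the numbers were not taken as pairs. With the replicate block the calls were 4 for the members in NkdΔD6 and 5 for related genes in Nkd. In NkdΔD6, the comparison in which the members' calls were followed, 14 of their single fold changes lost their call under the alternatives. In the other comparisons the members' calls were not followed, and 31 values moved by at least the spread between libraries within the 2 groups. Culd in NkdΔR1S (-0.01 without NkdΔR1S replicate 2) and CG13053 in NkdΔD6 (-0.05 without GFP replicate 1) turned sign without being called.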
